A study of Mus musculus with 28 samples.

Results

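The comparison set 2 control groups of one mouse study side by side, macrophages from PBS-injected mice and macrophages from mice that received no injection. Its members were the 4 arrays titled pMp_PBS3w and the 4 titled pMp_WT, 8 of the 28 arrays in the series, and its readout was every probe set that the platform table pairs with 1 gene symbol. Both groups were wild-type mice of C57BL/6 background. The PBS-injected mice received the saline buffer intravenously at 7 to 8 weeks of age and were sampled 3 to 4 weeks later, at 10 to 12 weeks; the labels name the group 3w and give no separate age for the uninjected mice. The other 20 arrays were from uninjected ATF7 knockout mice and from wild-type mice injected with LPS (a bacterial endotoxin), PGN (bacterial peptidoglycan), IMQ (imiquimod, an agonist of Toll-like receptor 7) or BG (β-glucan, a fungal cell wall sugar), 4 of each. They were used here for values set beside the controls and for the estimate of the spread within groups. The labels describe the 4 samples of a group as independent experiments and do not say how many mice went into each. The limma p-values rest on the spread between samples of a group, pooled over all 28 arrays and not over these 8 alone. The sets in which samples were collected and arrays processed are not stated in the labels, so injection and array set cannot be told apart in this comparison.

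Resident peritoneal macrophages are long-lived cells that lie free in the fluid of the body cavity. They take up dying cells and microbes, secrete complement C1q, and hold their identity through the transcription factor GATA6 and the growth factor receptor CSF1R. A buffer injection is the reference against which immune stimuli are read, so its own distance from untouched mice is the baseline of such a study. The cells were washed from the peritoneum without an eliciting agent, kept overnight in serum-free medium and freed of floating cells by washing, in every group alike.

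Markers of the labelled cell type were present. All 19 general macrophage markers and all 32 markers of large peritoneal macrophages that the array measures were above the background floor in all 8 arrays. The floor was a log2 signal of 6.32, the 95th percentile of the odorant and vomeronasal receptor probe sets, which macrophages are not known to use. Of 20 markers of T and NK cells, 12 were at or below it in all 8 arrays, as were 8 of 11 mast cell markers. B cell markers were present, with 19 of 23 above the floor in all 8 arrays. Also above it in all 8 arrays were 5 of 6 erythroid and platelet markers and 13 of 19 monocyte-derived and dendritic cell markers. For mesothelial, fibroblast and fat cell markers this was 9 of 19, for neutrophil markers 4 of 12 and for eosinophil markers 2 of 6. Pearson correlations of log2 signals over all 35556 probe sets were 0.993 to 0.995 among the PBS arrays, 0.985 to 0.992 among the uninjected arrays and 0.983 to 0.993 between the groups. Atf7 itself, intact in both groups, had log2 signals of 10.71 or more on average in both, with a difference of -0.02.

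Small differences were widespread and large ones few. Of 13527 genes tested, limma called 4422 at an adjusted p under 0.05, which is 32.7%: 2666 were higher after PBS (19.7%) and 1756 lower (13%). Just 72 genes were called and at least 1.5-fold higher (0.532%) and 9 at least 1.5-fold lower (0.0665%), together 0.599%, while the median log2 difference over all genes was 0.02. All 4 PBS arrays lay above all 4 uninjected arrays in 1901 genes (14.1%) and below them in 1185 (8.76%). The counts depended on single arrays. Without uninjected replicate 1 the fit called 1870 higher and 921 lower, 2791 in all, and without uninjected replicate 2 it called 1746 and 1009, 2755 in all. Of the calls made on all arrays, 1479 higher and 649 lower held when any 1 of the 8 arrays was left out. The counts past 1.5-fold ranged from 50 without uninjected replicate 1 to 127 without PBS replicate 1 for the higher genes. For the lower genes they were 3 without uninjected replicate 1, 16 without replicate 2, 14 without replicate 4 and 18 without PBS replicate 1. The direction split also moved with scaling: 60.3% of the calls were higher as deposited, 76.1% after centring each array on its median (3519 higher, 1107 lower) and 51.5% after a second quantile normalisation (1737 higher, 1635 lower).

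Direction followed signal strength. In the dimmest 3382 genes by mean log2 signal, those up to 6.93, 3.93% were called higher and 27.5% lower. In the 3382 genes from 6.93 to 8.00, 15.1% were called higher and 14.8% lower. In the 3381 genes from 8.00 to 9.14 these shares were 28.3% and 3.85%. In the brightest 3382 genes, from 9.14 up, 31.5% were called higher and 5.80% lower. The shares of all genes given beside each list below are not matched for signal. Odorant and vomeronasal receptors, the background list, also had lower calls: 0 of 110 tested were higher and 34 lower (30.9%), median -0.19. The lower count was 16 without uninjected replicate 2 and 17 on PBS replicates 1 and 2 alone, and 14, at a median of -0.09, after a second quantile normalisation. Without uninjected replicate 4 or PBS replicate 4, 1 was higher. Their mean log2 level was 6.61 to 6.80 in the uninjected arrays and 6.46 to 6.51 in the PBS arrays. The share of a lower call that this shift carries was not tested. Among the lower calls of dim genes named below, those of Adgrb1, Pmvk, Cd3e, Siglecf and Zbtb46 stand beside this list's median of -0.19.

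**Figure D1:**
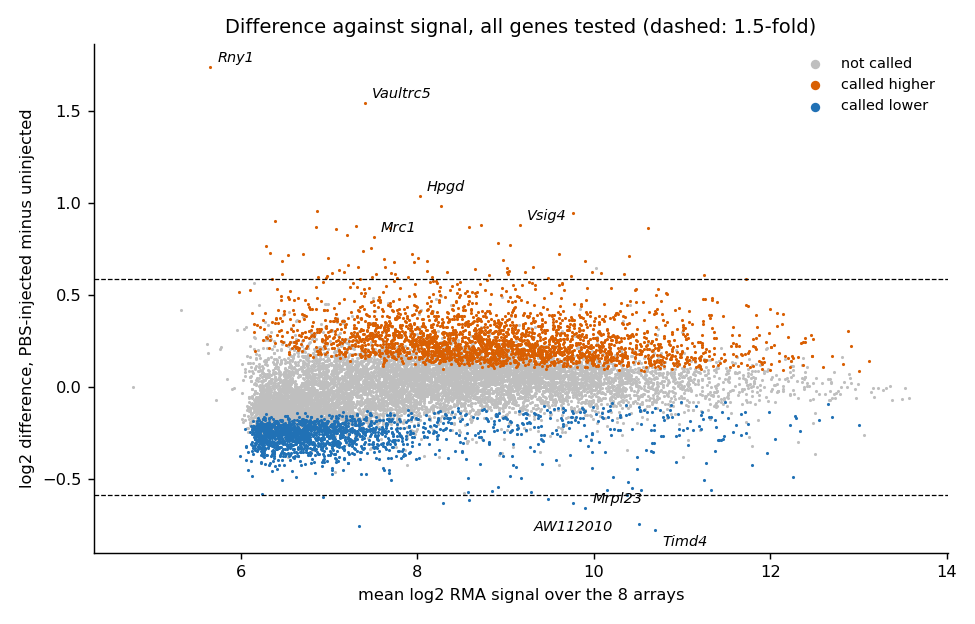
Log2 difference, PBS-injected minus uninjected, against the mean log2 RMA signal over the 8 arrays, 1 point per gene (13527 genes). Orange points were called higher and blue points lower at a limma adjusted p under 0.05, dashed lines mark 1.5-fold, and the blue points crowd at the dim left end, where 27.5% of the dimmest 3382 genes were called lower.

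The 10 largest rises among the genes with separate groups were those of Rny1, Vaultrc5, Hpgd, Kcnj2, Dab2, Vsig4, Spry3, Ms4a7, Cd28 and Mrps21; the place of Rny1 rests on an uninjected group below the floor. Vaultrc5, a vault RNA of the vault particle, had log2 signals of 6.65, 6.58, 6.80 and 6.52 in uninjected replicates 1 to 4 and of 7.81, 8.05, 8.24 and 8.60 in PBS replicates 1 to 4. Every PBS array lay above every uninjected array, by 2.90-fold between the means (log2 difference 1.54 ± 0.14 SE, limma adjusted p = 1.72e-07). Rny1, a Y RNA that binds the Ro protein, was below the floor in all 4 uninjected arrays (4.76 to 4.81) and reached 6.29, 6.52, 6.55 and 6.72 after PBS. Of the PBS values 3 sat just above the floor, so the fold is given as a bound of at least 1.15-fold (limma adjusted p = 2.1e-06).

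Hpgd, the 15-hydroxyprostaglandin dehydrogenase that inactivates prostaglandins, was at 7.27, 7.85, 7.34 and 7.56 without injection and at 8.50, 8.13, 8.84 and 8.71 after PBS. The groups did not overlap, and the rise was 2.05-fold (log2 1.04 ± 0.22 SE, limma adjusted p = 0.00131). Hpgds, a prostaglandin D synthase, was at 6.63 to 6.99 without injection and at 7.21 to 8.00 after PBS, a 1.77-fold rise (limma adjusted p = 0.00129). Kcnj2, an inward-rectifier potassium channel, was at 7.29, 7.90, 7.81 and 8.10 without injection and 8.43, 8.72, 9.05 and 8.83 after PBS. It rose 1.98-fold with no overlap (limma adjusted p = 0.000189). Dab2, an endocytic adaptor, was at 8.68, 9.60, 9.31 and 9.60 against 9.78, 9.68, 10.82 and 10.70. PBS replicates 1 and 2 lay only just above the uninjected arrays and replicates 3 and 4 well above them. The rise was 1.93-fold (limma adjusted p = 0.00434) and was not called on PBS replicates 1 and 2 alone.

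Ms4a7, a membrane protein of tissue macrophages, rose 1.83-fold (limma adjusted p = 3.98e-05), from 7.61 to 8.50 without injection to 8.78 to 9.27 after PBS. Spry3, of the Sprouty family of growth factor antagonists, and Cd28, a costimulatory receptor best known from T cells, also rose 1.83-fold each (limma adjusted p = 0.00147 and 0.00232). Cd28 was the dimmer of the pair, at 6.04 to 6.60 without injection and 7.02 to 7.75 after PBS. Mrps21, a mitochondrial ribosomal protein, rose 1.82-fold (limma adjusted p = 0.000554), from 10.08 to 10.29 up to 10.80 to 11.29.

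Several genes of apoptotic cell uptake and scavenging rose. Of 33 tested, 11 were higher (33.3%, beside 19.7% of all genes) and 2 lower (6.06%, beside 13%), with a median of 0.17 beside 0.02 for all genes, and 9 of the 11 held without any 1 array. Leaving out PBS replicate 2 raised the count to 17, and on PBS replicates 1 and 2 alone it was 6; the 2 lower calls became 1 without uninjected replicate 1, 2 or 4 or without PBS replicate 4. The list averaged 9.13 without injection and 9.28 after PBS. Of all genes tested, 28.3% were called higher at mean signals of 8.00 to 9.14 and 31.5% above that. Mrc1, the mannose receptor that clears glycoproteins, was at 6.91, 7.13, 7.27 and 7.10 without injection and 7.41, 7.72, 8.16 and 8.36 after PBS. Its groups were separate and the rise was 1.76-fold (log2 0.81 ± 0.15 SE, limma adjusted p = 0.000343). C1qb, a chain of the C1q molecule that tags dying cells, was among the brightest, at 11.82, 11.89, 11.90 and 11.87 and then 12.18, 12.15, 12.41 and 12.34. That is a tight 1.32-fold rise with no overlap (limma adjusted p = 0.000123). C1qc, another C1q chain, rose 1.36-fold (limma adjusted p = 0.00302). The remaining chain, C1qa, differed by 0.16 with overlapping arrays (limma adjusted p = 0.145).

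Further members of this list were called in either direction. Gas6, which links exposed phosphatidylserine to the kinase receptor MERTK, was at 7.29, 7.22, 7.32 and 7.41 and then 7.51, 7.91, 8.18 and 8.25. It rose 1.57-fold (limma adjusted p = 0.00145). Mertk itself rose 1.16-fold (limma adjusted p = 0.00654), Mfge8, another bridging protein, 1.20-fold (0.00432) and Elmo1, which activates Rac during engulfment, 1.18-fold (0.00109), all with separate groups. Msr1, the class A scavenger receptor, had 11.66 ± 0.01 (SD, n = 4) without injection and 11.86 ± 0.04 after PBS, a 1.14-fold rise (limma adjusted p = 0.00147). Adgrb1, an engulfment receptor close to the floor here, fell 1.30-fold (limma adjusted p = 0.00114), from 6.76 to 6.88 down to 6.33 to 6.51.

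Timd4, the phosphatidylserine receptor TIM4 of long-resident macrophages, split the PBS group. Uninjected replicates 1 to 4 were at 11.17, 10.89, 11.21 and 11.03, and PBS replicates 1 and 2 at 11.27 and 10.99. PBS replicates 3 and 4 were at 9.56 and 9.40, so the group mean was lower by 0.77 only through those arrays (limma adjusted p = 0.0434). The call was lost without any 1 of the uninjected arrays and without PBS replicate 3 or 4 (adjusted p = 0.0589 to 0.206). The difference was -0.47 without PBS replicate 4 and turned to 0.06 on PBS replicates 1 and 2 alone. Few genes behaved so: over all genes tested, 2 lay at least 1 log2 unit lower in both of those arrays than in PBS replicates 1 and 2, and 1 lay as far above.

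**Figure D2:**
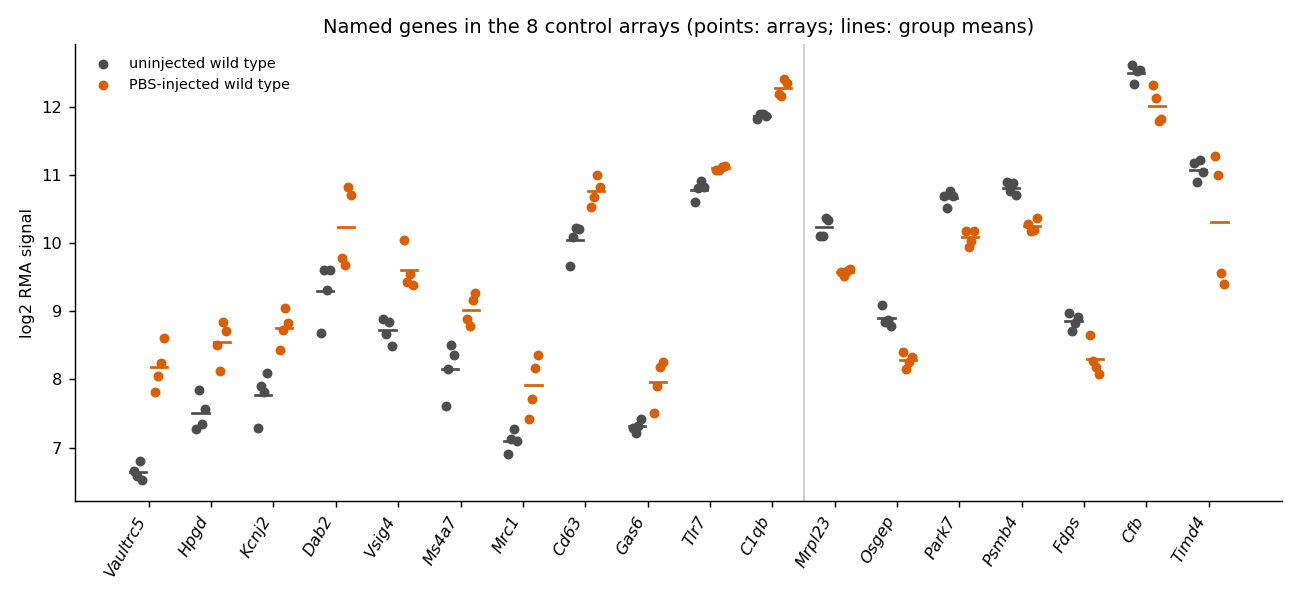
Log2 RMA signal of 18 genes in the 4 uninjected (grey) and 4 PBS-injected (orange) wild-type arrays; points are arrays in replicate order and lines group means. Genes left of the vertical line were higher after PBS with no overlap between groups, those to its right had a lower mean, and for Timd4 PBS replicates 3 and 4, at 9.56 and 9.40, stand under all other arrays.

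Complement and Fc receptor genes gave 9 higher (45%, beside 19.7% of all genes) and 2 lower (10%, beside 13%) of 20 tested, median 0.16. Without uninjected replicate 1 the higher count was 5, on PBS replicates 1 and 2 alone it was 4, and without uninjected replicate 3 or 4 the lower count was 1. At a list mean of 10.14 without injection, its 45% higher stood beside 31.5% of the brightest 3382 genes. Vsig4, the complement receptor CRIg that binds C3b, was at 8.88, 8.67, 8.85 and 8.49 without injection and 10.04, 9.43, 9.55 and 9.38 after PBS. The lowest PBS array lay above the highest uninjected one, and the rise was 1.84-fold (limma adjusted p = 0.000183). C3ar1, the C3a receptor, rose 1.18-fold (limma adjusted p = 0.00156), and Cfp, properdin, the stabiliser of the alternative pathway convertase, 1.22-fold (0.00634), both with overlapping arrays. Cfb, factor B of the same pathway, fell. It was at 12.61, 12.33, 12.52 and 12.53 and then 12.31, 12.13, 11.79 and 11.82, a 1.4-fold fall with no overlap (limma adjusted p = 0.00191).

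A share of the receptors that sense microbes rose. Of 39 pattern recognition genes tested, 12 were higher (30.8%, beside 19.7%) and 0 lower (1 without PBS replicate 2), 8 of the 12 in every fit that left out an array, although the list's median of 0.04 was close to that of all genes. The list averaged 9.64 without injection, and its 30.8% higher was close to the 31.5% of the brightest 3382 genes. Tlr7, the endosomal receptor for single-stranded RNA, was at 10.60, 10.81, 10.90 and 10.83 without injection and at 11.07, 11.07, 11.12 and 11.13 after PBS. It rose 1.24-fold with no overlap (limma adjusted p = 0.000207). Among other nucleic acid receptors of endosomes, Tlr13 rose 1.42-fold (limma adjusted p = 0.0063), Tlr3 1.31-fold (0.00204) and Tlr8 1.20-fold (0.00523), the last with overlapping arrays, whereas Tlr9, the DNA receptor, differed by -0.03 (0.883). Ticam1, the adaptor TRIF of TLR3 and TLR4, rose 1.22-fold (limma adjusted p = 0.00115), and Ly96, the MD-2 partner of TLR4, 1.23-fold (0.00157).

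The receptors of the ligands used elsewhere in the study gave a mixed picture. Tlr4, the LPS receptor, was at 8.43, 8.59, 8.79 and 8.77 without injection and 9.05, 8.96, 8.80 and 8.95 after PBS, a 1.23-fold rise (limma adjusted p = 0.00914) that was not called without uninjected replicate 1 (adjusted p = 0.0562). Clec7a, the β-glucan receptor dectin-1, rose 1.18-fold (limma adjusted p = 0.0403) with overlapping arrays, and 6 of the 8 single-array omissions ended the call, those of uninjected replicates 1, 2 and 4 and of PBS replicates 1, 3 and 4 (adjusted p = 0.0536 to 0.187). Tlr2, a receptor for bacterial lipoproteins, differed by -0.12 (limma adjusted p = 0.261). Nod2, a cytosolic sensor of peptidoglycan fragments, differed by -0.15 (limma adjusted p = 0.275).

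Of 40 lysosome and autophagy genes tested, 16 were higher (40%, beside 19.7% of all genes) and 1 lower, the median was 0.09, 36 of 40 differences were positive (54.6% over all genes), and 11 of the 16 held without any 1 array. On PBS replicates 1 and 2 alone the count was 7. At a list mean of 10.35 without injection, its 40% higher stood beside 31.5% of the brightest 3382 genes. Gabarapl1, an autophagosome protein of the Atg8 family, rose 1.32-fold (limma adjusted p = 0.000138). The acid hydrolases Gla, α-galactosidase, and Gaa, α-glucosidase, rose 1.39-fold and 1.22-fold (limma adjusted p = 0.000476 and 0.000422), and Hexa, a β-hexosaminidase subunit, 1.18-fold (0.000672). Cd63, a tetraspanin of late endosomes and exosomes, went from 10.05 ± 0.26 (SD, n = 4) to 10.76 ± 0.20, a 1.64-fold rise with separate groups (limma adjusted p = 3.61e-05). The lower member was Becn1, a scaffold of autophagy initiation, which fell 1.19-fold (limma adjusted p = 0.000745).

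Lipid genes under LXR and PPAR control gave 9 higher (33.3%, beside 19.7% of all genes) and 0 lower of 27 tested, with 4 of the 9 held. The count was 4 without uninjected replicate 1 and 4 without PBS replicate 3, the lower count was 2 without PBS replicate 1 and 1 without uninjected replicate 3 or PBS replicate 2, and after a second quantile normalisation 3 were higher and 2 lower. The members held without any 1 array were Pdk4, a kinase that restrains glucose oxidation, up 1.43-fold (limma adjusted p = 0.00957), Angptl4, a lipoprotein lipase inhibitor, up 1.19-fold (0.00314), Nr1h3, which encodes LXRα, up 1.19-fold (0.00825), and Pnpla2, a triglyceride lipase, up 1.10-fold (0.00939). The lipid list averaged 9.98 without injection, and its 33.3% higher was close to the 31.5% of the brightest 3382 genes. Pdk4 varied within the PBS group, at 8.24, 7.61, 8.10 and 7.51, against 7.20 to 7.53 without injection. Of 20 sterol synthesis genes 1 was higher and 4 were lower (20%, beside 13% of all genes), with a median of -0.20. Fdps, which makes farnesyl diphosphate, fell 1.48-fold, from 8.98, 8.71, 8.82 and 8.92 to 8.65, 8.26, 8.18 and 8.08 (limma adjusted p = 0.00206), and Pmvk, an enzyme upstream of it, 1.19-fold (0.00512). The lower count of this list was 2 without uninjected replicate 1 or 4 or PBS replicate 3 or 4 and 10 without PBS replicate 1.

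Of 20 metallothionein, zinc and iron genes, 6 were higher (30%, beside 19.7% of all genes) and 0 lower (1 without uninjected replicate 3), 4 of them held. The list averaged 9.51 without injection, and its 30% was close to the 31.5% of the brightest 3382 genes called higher. Steap3, an endosomal iron reductase, rose 1.26-fold (limma adjusted p = 0.00129), Slc39a10, a zinc importer, 1.25-fold (0.00523), and Spic, the transcription factor of iron-recycling macrophages, 1.34-fold (0.00598). On PBS replicates 1 and 2 alone the list's count was 1. Slc40a1, the iron exporter ferroportin, had a 1.94-fold higher mean (limma adjusted p = 0.0172) that rested on part of the group, at 6.24, 7.06, 7.65 and 8.43 after PBS against 5.87, 6.73, 6.31 and 6.66. The call was lost without uninjected replicate 1 and without PBS replicate 3 or 4, and the log2 difference of 0.95 became 0.59 without PBS replicate 4 (adjusted p = 0.0984). The metal-induced Mt1 and Mt2 differed by 0.07 and 0.13 (limma adjusted p = 0.417 and 0.533), and Hmox1, heme oxygenase, by 0.22 (0.0736), which was called without uninjected replicate 4 or PBS replicate 1 (adjusted p = 0.00726 to 0.0144).

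The list of general macrophage markers was close to level at its median, while single markers of macrophage identity moved in either direction. Among 19 general macrophage markers 4 were higher (21.1%, near the 19.7% of all genes) and 1 lower (0 without uninjected replicate 1 or 3 or PBS replicate 3 or 4), median 0.00. At a list mean of 11.27 without injection, the 21.1% higher stood beside 31.5% of the brightest 3382 genes. Cd68, a lysosomal glycoprotein, rose 1.22-fold (limma adjusted p = 0.000156) and Maf, a macrophage transcription factor, 1.27-fold (0.00591). Adgre1, the F4/80 antigen, was at 12.42, 12.32, 12.45 and 12.34 and then 12.44, 12.33, 12.36 and 12.36, a difference of -0.01 (limma adjusted p = 0.87). Csf1r fell by 0.09 (limma adjusted p = 0.0255), a call lost without uninjected replicate 1 or 3 or PBS replicate 3 or 4 (adjusted p = 0.0587 to 0.0869). Of 32 large peritoneal macrophage markers 3 were higher (9.38%) and 5 lower (15.6%), beside 19.7% and 13% of all genes, and none of the 5 lower calls held. The list's median was -0.06, and 11 of 32 differences were positive (54.6% over all genes). It averaged 9.99 without injection, and 31.5% of the brightest 3382 genes were called higher and 5.80% lower. The lower count was 0 without uninjected replicate 1 or PBS replicate 3, 1 without PBS replicate 4, 2 without uninjected replicate 2, 3 without uninjected replicate 3 and 10 without PBS replicate 1. Gata6 differed by -0.14 (limma adjusted p = 0.375), at 10.81, 10.55, 10.41 and 10.17 without injection and 10.68, 10.30, 10.21 and 10.19 after PBS. Cd5l, a secreted scavenger protein kept in this list, rose 1.47-fold (limma adjusted p = 0.00998). Vsig4 and Timd4, described above, are members too, and differed by 0.88 and -0.77.

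Markers of other cells were looked at because whole RNA was measured, in which fewer cells of a type and less RNA per cell cannot be told apart. Of 20 B cell genes 2 were higher (1 without uninjected replicate 2 or PBS replicate 2) and 1 lower (4 without uninjected replicate 2, 2 without PBS replicate 2), both under the shares of all genes, with the list's mean level at 7.86 to 8.57 without injection and 8.08 to 8.47 after PBS. Cd79a, part of the B cell receptor, differed by 0.11 (limma adjusted p = 0.66) and was lowest in uninjected replicate 2, at 9.49 against 9.95 to 10.42 elsewhere. Of 8 T and NK genes tested, 0 were higher (1 without uninjected replicate 3 or 4 or PBS replicate 1) and 3 lower (1 without uninjected replicate 1, 5 without replicate 3), and after a second quantile normalisation 0. The T and NK list, at a mean of 6.92 without injection, had 37.5% lower, beside 27.5% of the dimmest 3382 genes. Cd3e, of the T cell receptor complex, fell 1.19-fold at a dim 6.49 to 6.93 over all 8 arrays (limma adjusted p = 0.0126). Siglecf, which marks eosinophils and some macrophages, fell 1.21-fold (limma adjusted p = 0.00415). Its difference was -0.28 at a mean of 7.44 without injection, beside the median of -0.19 of the odorant and vomeronasal receptors. Of 15 mesothelial, fibroblast and fat cell markers 7 were lower (46.7%, beside 13% of all genes), none of them held, and 1 was higher, Dcn, a matrix proteoglycan, by 0.35 (limma adjusted p = 0.0276; not called without uninjected replicate 1 or 2 or PBS replicate 2 or 4). For the lower count, leaving out uninjected replicate 1 gave 0; without uninjected replicate 2 or PBS replicate 1 the count was 1, without PBS replicate 4 it was 3 and without PBS replicate 2 it was 4. The mesothelial, fibroblast and fat cell list was dim, at a mean of 7.12 without injection. Of the dimmest 3382 genes 27.5% were called lower, and of the odorant and vomeronasal receptors 30.9%. Of the genes from 6.93 to 8.00, 14.8% were called lower. Among 16 monocyte-derived and dendritic cell genes, 2 were higher and 2 lower, 12.5% each, with a median of -0.01. The higher ones, called in every fit that left out an array, were Folr2, a folate receptor of tissue macrophages, 1.72-fold (limma adjusted p = 0.00105), and Cd209a, a DC-SIGN lectin, 1.82-fold (0.00377), both with overlapping arrays. The lower ones were Zbtb46, a transcription factor of dendritic cells, by -0.21 with separate groups (limma adjusted p = 0.0111), and Itgax, CD11c, by -0.35 with overlapping arrays (0.0202). Zbtb46 was dim, at a mean of 7.19 without injection, and the median of the odorant and vomeronasal receptors was -0.19. The lower count of the list was 1 without uninjected replicate 1, 3 or 4 or PBS replicate 1.

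Inflammatory genes gave no common direction. Of 40 type I interferon response genes limma called 0 (2 at an unadjusted p under 0.05, 1 higher after centring, and up to 2 higher with 1 array left out), with a median of 0.02 and a list mean of 8.75 to 9.21 without injection and 8.77 to 9.16 after PBS. Ifit3, an interferon-induced antiviral protein, was at 8.46, 9.14, 8.68 and 9.27 and then 8.93, 9.28, 8.40 and 8.84, differing by -0.02 (limma adjusted p = 0.957). Cxcl10, an interferon-induced chemokine, differed by -0.23 ± 0.35 SE (limma adjusted p = 0.62). Of 13 interferon-γ GTPases and chemokines limma called 0 as well, with 0 at an unadjusted p under 0.05. Of 42 NF-κB cytokine and chemokine genes 5 were higher (11.9%) and 4 lower (9.52%), under the 19.7% and 13% of all genes. The higher count was 1 without uninjected replicate 1 and 3 without PBS replicate 2. The lower count was 1 without uninjected replicate 1 or PBS replicate 3, 0 without PBS replicate 4, 2 without uninjected replicate 2 or 4 and 8 without PBS replicate 2. The member whose call held was Ccl4, a chemokine, up 1.26-fold (limma adjusted p = 0.00427). Tnf differed by -0.04 (limma adjusted p = 0.813) and Cxcl2 by -0.21 (0.273). Il1b had separate groups, at 8.31, 8.11, 8.19 and 8.42 and then 8.07, 7.59, 7.96 and 7.92, yet its difference of -0.37 was not called (limma adjusted p = 0.0842; exact two-sided permutation p = 0.0286, the smallest that 4 against 4 can give). It was called lower on the 8 arrays alone and after a second quantile normalisation.

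Antigen presentation differed at single genes. H2-DMa, a peptide-loading chain of MHC class II, rose 1.44-fold with no overlap, from 10.33, 10.40, 10.51 and 10.61 to 10.86, 10.95, 11.05 and 11.11 (limma adjusted p = 8.64e-05). It was the 1 called gene of 8 class II genes tested; 3 were higher without PBS replicate 1, and 1 was lower without uninjected replicate 2. Of 13 MHC class I genes 0 were higher and 3 lower (23.1%, beside 13% of all genes), and the lower count was 1 without uninjected replicate 1, PBS replicate 1 or PBS replicate 3. The held one was Nlrc5, the class I transactivator, which fell 1.22-fold (limma adjusted p = 0.00616) on its brightest probe set; 3 of its 19 probe sets were called lower and 0 higher.

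Immediate early and heat shock genes respond to acute stress, and neither list was called more often than all genes (19.7% higher, 13% lower). Of 37 immediate early genes 6 were higher (16.2%) and 3 lower (8.11%), and 1 of each held. Without uninjected replicate 1 the counts were 2 and 1; the higher count was 1 without PBS replicate 3 and 3 without PBS replicate 4. Fos differed by 0.14 (limma adjusted p = 0.328), with PBS replicates 3 and 4 at 8.18 and 7.89 and replicates 1 and 2 at 7.45 and 7.44, and Egr1 differed by 0.08 (0.275). Fosb, a Fos family member, was lower with no overlap (limma adjusted p = 0.000285), but at 6.05, 6.27, 6.42 and 6.12 after PBS 3 arrays were under the floor, and no fold is given. Myc, a growth regulator, rose 1.47-fold (limma adjusted p = 0.00295), at 7.77, 8.16, 8.52 and 8.55 after PBS against 7.52 to 7.87. Of 22 heat shock genes 4 were higher (18.2%) and 1 lower (4.55%), and Hspa1a, the inducible HSP70, differed by -0.04 (limma adjusted p = 0.8). The higher count was 2 without uninjected replicate 1, uninjected replicate 2 or PBS replicate 3. The rises held without any 1 array were Hspb1, HSP27, 1.32-fold (limma adjusted p = 0.00339), and Chordc1, an HSP90 co-chaperone, 1.28-fold (0.00878).

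Clock and glucocorticoid genes change with the hour and with stress hormones. Of 18 clock genes 2 were higher and 2 lower, 11.1% each, under the shares of all genes. Nr1d1, the repressor REV-ERBα, was at 10.36, 9.89, 10.04 and 10.04 and then 9.99, 9.30, 9.64 and 8.89, a 1.55-fold fall (limma adjusted p = 0.00523) in which PBS replicate 4 was lowest. Its relative Nr1d2 fell 1.20-fold with no overlap (limma adjusted p = 0.00605), again lowest in PBS replicate 4, and Bhlhe41, a repressor of the clock, rose 1.56-fold (0.00315). The other higher call was lost without uninjected replicate 1 or PBS replicate 3. The period genes Per1 and Per2 differed by 0.07 and -0.01 (limma adjusted p = 0.493 and 0.933) and Dbp, an output gene, by -0.10 (0.486). Of 19 glucocorticoid targets 5 were higher (26.3%, beside 19.7% of all genes) and 1 lower, 4 and 1 of them held. At a list mean of 8.70 without injection, the 26.3% higher stood beside 28.3% of the genes from 8.00 to 9.14. Slc46a3, a lysosomal transporter, rose 1.55-fold with no overlap (limma adjusted p = 0.00206) and Gpx3, a secreted peroxidase, 1.4-fold (0.00531). Fkbp5, a receptor co-chaperone strongly induced by the hormone, differed by -0.09 (limma adjusted p = 0.32). Tsc22d3, which encodes GILZ, rose 1.18-fold (limma adjusted p = 0.0347), a call lost without uninjected replicate 2 or 4 or PBS replicate 1, 2 or 3 (adjusted p = 0.0574 to 0.162).

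Respiratory chain genes moved in both directions within the same complexes. Of 45 tested 12 were higher (26.7%) and 6 lower (13.3%), beside 19.7% and 13% of all genes, and 9 and 6 of these held. The median was 0.04. The list averaged 9.78 without injection, and 31.5% of the brightest 3382 genes were called higher and 5.80% lower. Atp5g1, a subunit of the ATP synthase ring, rose 1.42-fold (limma adjusted p = 1.49e-06), while the catalytic-head subunits Atp5a1 and Atp5c1 fell 1.18-fold and 1.26-fold (8.14e-05 and 9.3e-05). Among complex I genes, Ndufs8 rose 1.31-fold (limma adjusted p = 1.53e-06) whereas Ndufa1 fell 1.30-fold (0.000904) and Ndufb6, a further subunit, 1.47-fold. Ndufb6 was at 10.45, 10.22, 10.58 and 10.46 and then 9.79, 9.93, 9.88 and 9.87, with no overlap (limma adjusted p = 3.4e-05). Uqcrc1 and Cyc1 of complex III rose 1.30-fold and 1.34-fold (limma adjusted p = 6.32e-06 and 4.37e-05), and Cox4i1 of complex IV fell 1.24-fold (0.000626).

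Glycolysis and hypoxia genes gave 6 higher (17.6%) and 4 lower (11.8%) of 34 tested, near the 19.7% and 13% of all genes, with 2 of each held. The higher count was 2 without uninjected replicate 1 or 2 or PBS replicate 3 or 4, and the lower count 2 without uninjected replicate 1. The held genes were Bnip3, a mitophagy receptor induced by low oxygen, up 1.22-fold (limma adjusted p = 0.00151), Tpi1, triosephosphate isomerase, up 1.21-fold (0.0054), Hif1a, the oxygen-regulated subunit of HIF-1, down 1.18-fold (0.00426), and Hk1, a hexokinase, down 1.15-fold (0.00946). Bnip3 and Hk1 have a further probe set each, which differed by 0.14 (limma adjusted p = 0.143) and 0.04 (0.609). The hypoxia response element core, searched as NACGTGC on both strands from 250 bases before to 50 after the start site, occurred in 4 of the 6 risen genes and in 2 of the 3 fallen genes with a promoter entry, and in 6.67% of the promoters of 27025 genes. Motifs were also searched for other lists. Of risen genes with a promoter entry, 1 of 5 immediate early genes held the cAMP element (2.03% of promoters). The heat shock element was in 1 of 4 (0.66%) and the metal element core in 2 of 5 (53.6%). The clock E-box was in 1 of 2 (8.09%). Neither the antioxidant core (0 of 5, 13.99%) nor the sterol core (0 of 1, 1.44%) was found. No fallen gene of these lists held its motif. The interferon list had no called gene. The hypoxia core can overlap the E-box CACGTG. The stretches around it in 1 risen and 1 fallen gene are shown because the same letters stand in genes of opposite direction, with the core in capitals, 5′ to 3′ on the gene's strand, from RefSeq on GRCm38.p6: Bnip3 is chr7:138909558-138909664, minus strand, and Hk1 is chr10:62340372-62340456, minus strand. A match is a description of the letters, not a site or a cause.
Bnip3: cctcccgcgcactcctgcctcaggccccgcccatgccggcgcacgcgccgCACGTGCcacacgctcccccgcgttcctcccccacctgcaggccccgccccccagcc
Hk1: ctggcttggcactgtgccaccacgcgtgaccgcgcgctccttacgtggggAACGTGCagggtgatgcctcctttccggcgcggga

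Among lists of at least 10 tested members, histone genes had the highest share of higher calls. Of 25 tested, 15 were higher (60%) and 0 lower (2 lower without uninjected replicate 3), the median was 0.23, 13 of the 15 held without any 1 array, and 13 were called on PBS replicates 1 and 2 alone. Replication-dependent histone genes lie in clusters, make messages without a poly(A) tail and are near copies of each other, so a probe set may report several of them. H2bc14 went from 8.70 ± 0.19 (SD, n = 4) to 9.33 ± 0.14, a 1.54-fold rise with no overlap (limma adjusted p = 1.23e-05). H2bc3 rose 1.54-fold (limma adjusted p = 0.000334), H2bc8 1.31-fold (0.000874), H2bc18 1.25-fold (0.000743) and H4c6 1.48-fold (0.001). Of 52 cell cycle genes, which serve proliferation like the replication histones, 6 were higher (11.5%, below the 19.7% of all genes) and 0 lower. Yet 46 of their 52 differences were positive (54.6% over all genes), at a median of 0.17 beside 0.02 for all genes. The list averaged 7.33 without injection, and 15.1% of the genes from 6.93 to 8.00 were called higher. Its higher count was 17 without PBS replicate 1, 15 without uninjected replicate 1, 3 without uninjected replicate 2 or PBS replicate 2, 2 without PBS replicate 4 and 0 on PBS replicates 1 and 2 alone. Mki67, the Ki-67 antigen, differed by 0.23 (limma adjusted p = 0.236).

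The octamer ATTTGCAT, known from H2B promoters and searched on both strands after the histone values had been seen, occurred in 4 of the 12 risen histone genes that had a promoter entry (of 15) and in 1.97% of the promoters of 27025 genes. All 4 were H2B genes. Their stretches are shown because these 4 risen genes hold the motif searched, the only one searched for this list, with the octamer in capitals, 5′ to 3′, plus strand of GRCm38.p6 from RefSeq: H2bc14 at chr13:21721969-21722076, H2bc3 at chr13:23746594-23746701, H2bc8 at chr13:23571291-23571398 and H2bc18 at chr3:96269602-96269709. The octamer begins 25 bases before the start site in H2bc14, 90 in H2bc3, 59 in H2bc8 and 48 in H2bc18. This too describes the letters only.
H2bc14: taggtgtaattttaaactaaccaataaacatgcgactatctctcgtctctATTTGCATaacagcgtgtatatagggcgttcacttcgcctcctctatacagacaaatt
H2bc3: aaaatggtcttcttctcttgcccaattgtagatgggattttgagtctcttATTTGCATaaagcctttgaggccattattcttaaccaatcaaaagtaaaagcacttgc
H2bc8: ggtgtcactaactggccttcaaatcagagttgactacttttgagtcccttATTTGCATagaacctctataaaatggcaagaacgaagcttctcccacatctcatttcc
H2bc18: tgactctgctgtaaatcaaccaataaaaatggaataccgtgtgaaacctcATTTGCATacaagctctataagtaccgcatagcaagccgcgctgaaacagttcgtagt

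Small nucleolar RNAs guide the chemical modification of ribosomal RNA. Of 41 tested 19 were higher (46.3%, beside 19.7% of all genes; 10 on PBS replicates 1 and 2 alone) and 1 lower (2 lower without uninjected replicate 2 or PBS replicate 1), median 0.23, and 13 of the 19 held. Snora7a went from 9.36 ± 0.10 (SD, n = 4) to 9.92 ± 0.07, a 1.48-fold rise (limma adjusted p = 1.8e-06), and Snord35a and Snord73b rose 1.65-fold (0.00048) and 1.81-fold (0.00156), all with separate groups. Messages of ribosomal protein genes are among the most abundant of any cell. Of 55 tested 21 were lower (38.2%, beside 13% of all genes), 16 of them in every fit that left out an array, and 1 was higher (0 without uninjected replicate 1 or 2 or PBS replicate 1, 2 or 3); the median was -0.13. Rps7 fell 1.42-fold (limma adjusted p = 6.07e-06), from 11.46 to 11.59 without injection down to 10.87 to 11.12 after PBS, Rps4x 1.27-fold (1.72e-05), Rps20 1.28-fold (3.32e-05) and Rpl4 1.23-fold (2.17e-05). These genes have many processed copies in the genome, and which copies the probes also bind was not examined. Both directions kept under the other scalings, with 20 and 21 small nucleolar RNAs higher and 29 and 16 ribosomal protein genes lower after quantile normalisation and centring, respectively.

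Of 117 microRNA genes tested 5 were higher and 41 lower (35%, beside 13% of all genes), median -0.18, beside -0.19 for the odorant and vomeronasal receptors. The lower count was 20 without uninjected replicate 1, 21 without uninjected replicate 2, 24 without PBS replicate 2 and 19 on PBS replicates 1 and 2 alone; the higher count was 3 without uninjected replicate 1 or 2 or PBS replicate 1 or 2.

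**Figure D3:**
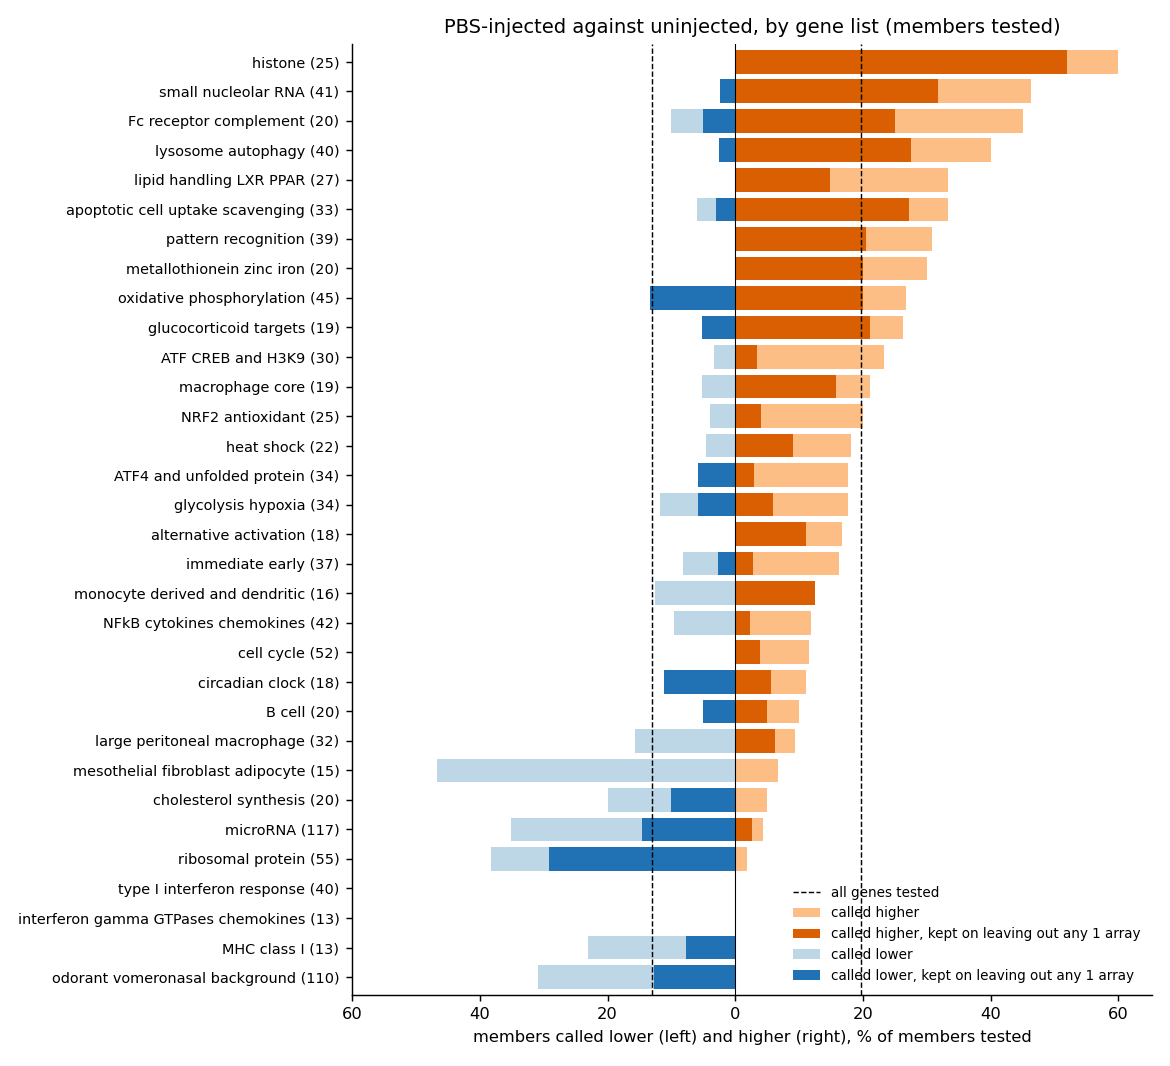
Share of each gene list's tested members called higher (right, orange) and lower (left, blue) after PBS, with dark bars for calls kept on leaving out any 1 of the 8 arrays and dashed lines at the 19.7% and 13% of all genes tested. Lists of at least 10 tested members are drawn, their number in brackets; histone genes reach 15 of 25 higher, ribosomal protein genes 21 of 55 lower, and the interferon lists have no called member.

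The 10 largest falls among the genes with separate groups were those of AW112010, Mrpl23, Osgep, Alyref, Park7, Pfdn5, Fdps, Chchd7, Ndufb6 and Malat1. Mrpl23, a mitochondrial ribosomal protein, was at 10.11, 10.11, 10.36 and 10.33 without injection and 9.57, 9.52, 9.59 and 9.61 after PBS. The PBS arrays lay close together and below every uninjected array, a 1.57-fold fall (log2 difference -0.65 ± 0.07 SE, limma adjusted p = 1.44e-06). Osgep, an enzyme of tRNA modification, fell 1.53-fold (limma adjusted p = 1.53e-06), from 8.78 to 9.09 down to 8.15 to 8.40. Alyref, an mRNA export factor, fell 1.52-fold (limma adjusted p = 1.8e-06), Park7, the redox protein DJ-1, 1.5-fold (1.37e-06) and Pfdn5, a prefoldin subunit, 1.48-fold (1.05e-06). Chchd7, a mitochondrial protein, fell 1.47-fold (limma adjusted p = 3.92e-06), as did Malat1, an abundant nuclear noncoding RNA (1.51e-05), and Psmb4, a proteasome subunit (5.75e-07). AW112010, a transcript induced in activated immune cells, had the largest fall among the genes with separate groups, at 11.01, 10.68, 10.95 and 10.87 and then 10.43, 10.50, 9.67 and 9.94. The 1.67-fold fall (limma adjusted p = 0.00703) was widest in PBS replicates 3 and 4.

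The other groups place these differences. Over all genes tested, 75 were higher in all 20 injected arrays, whatever was injected, than in all 8 uninjected arrays, and 27 were lower. Vaultrc5 was at 7.34 to 8.60 in the injected arrays and at 6.52 to 7.10 in the uninjected ones, knockout included. Rny1 was at 5.39 to 7.66 and 4.25 to 4.81, but much of that separation lies under the floor of 6.32. All its uninjected arrays and some injected ones, among them those after LPS at 5.39 to 6.24, were below it. Rny1 passed the filter only through injected arrays. C1qb and C1qc were among the separated genes as well, at 12.12 to 12.53 against 11.57 to 12.00 and at 11.77 to 12.40 against 10.96 to 11.68. On the lower side Mrpl23 was at 9.38 to 9.84 in the injected arrays and 10.11 to 10.50 in the uninjected ones, Park7 at 9.62 to 10.24 and 10.51 to 10.84, Ndufb6 at 9.42 to 10.02 and 10.22 to 10.97, and Psmb4 at 10.18 to 10.48 and 10.71 to 11.36. Osgep and Chchd7 were split the same way. The PBS and uninjected wild-type arrays are part of these counts, and whether the injected and uninjected groups were also processed apart is not given in the sources used here.

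Not every gene was so arranged. Mrc1 had means of 7.10 without injection and 7.91 after PBS, and of 8.49 in the uninjected knockout arrays, above any injected group. Vsig4 was at 8.72 without injection and 9.60 after PBS, at 9.41 in the knockout arrays and at 8.30 after β-glucan, the lowest of all groups. Hpgd was higher after PBS, at 8.54, than in any other group, the means of which ran from 7.51 to 8.37. Timd4 was low in the β-glucan arrays too, with a mean of 10.04 beside 10.31 after PBS.

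**Figure D4:**
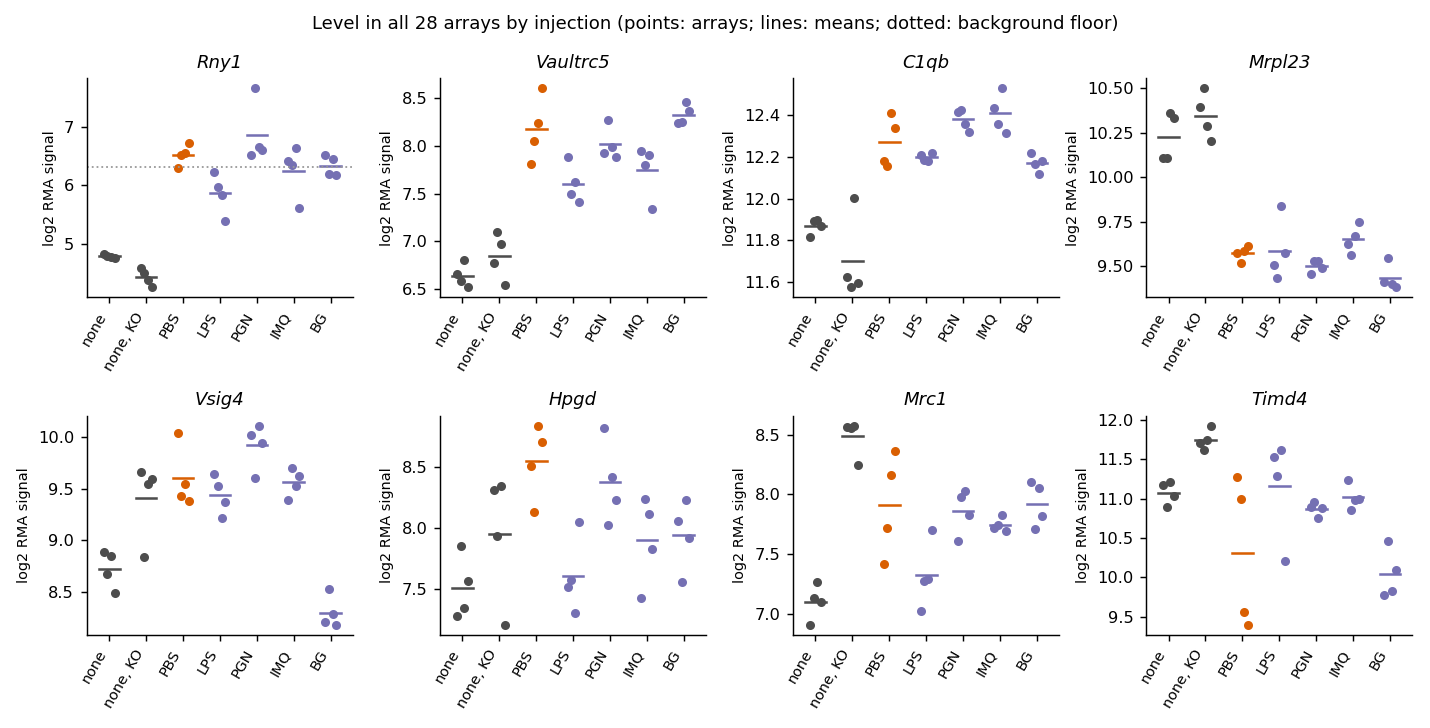
Log2 RMA signal of 8 genes in all 28 arrays, by what was injected; none is uninjected wild type, KO the uninjected ATF7 knockout, points are arrays and lines the means of 4. Rny1, Vaultrc5 and C1qb are higher and Mrpl23 lower in all injected than in all uninjected arrays, whereas Vsig4, Hpgd, Mrc1 and Timd4 differ among the injected groups. For Rny1 all uninjected and some injected arrays lie under the background floor.

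A look at arrays outside the comparison set the 16 ligand-injected wild-type arrays against the 4 uninjected knockout arrays. The sets share no array with the controls but differ also in genotype and ligand, and this contrast was added after the data had been seen. Of the 2666 genes higher after PBS, 1088 (40.8%) were called higher there too, which is 37.6% of the genes higher there, beside 21.4% of all genes; 323 (12.1%) were called lower there, beside 17.8% of all genes. Of the 1756 genes lower after PBS, 360 (20.5%) were called lower there, 14.9% of the genes lower there, beside 17.8% of all genes, and 53 (3.02%) were called higher, beside 21.4% of all genes. These shares of all genes are not matched for signal, and 931 of the 1756 were among the dimmest 3382 genes. H2bc14 was among the genes higher in both, by 0.63 after PBS and by 0.84 in the ligand arrays, with limma adjusted p = 1.57e-10 in the latter. H2bc3, H2bc8 and H4c6 were higher there too, whereas H2bc18 was lower, by -0.30 (limma adjusted p = 7.2e-05).

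At the level of whole lists, histone genes averaged 8.29 (8.21 to 8.41 over arrays) in uninjected wild-type arrays, 8.51 (8.42 to 8.57) after PBS and 8.42 to 8.60 after the 4 ligands, while the knockout arrays averaged 8.07. Small nucleolar RNAs averaged 7.76 without injection, 8.03 after PBS, 7.93 to 8.37 after the ligands and 7.61 in the knockout. Ribosomal protein genes were not arranged by injection. They averaged 10.79 without injection and 10.57 in the knockout, 10.66 after PBS, 10.66 after LPS, 10.75 after PGN, 10.79 after IMQ and 10.82 after BG. Type I interferon genes averaged 8.95 and 8.99 in the control groups and were higher, 9.25 to 9.91, in every other group.

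**Figure D5:**
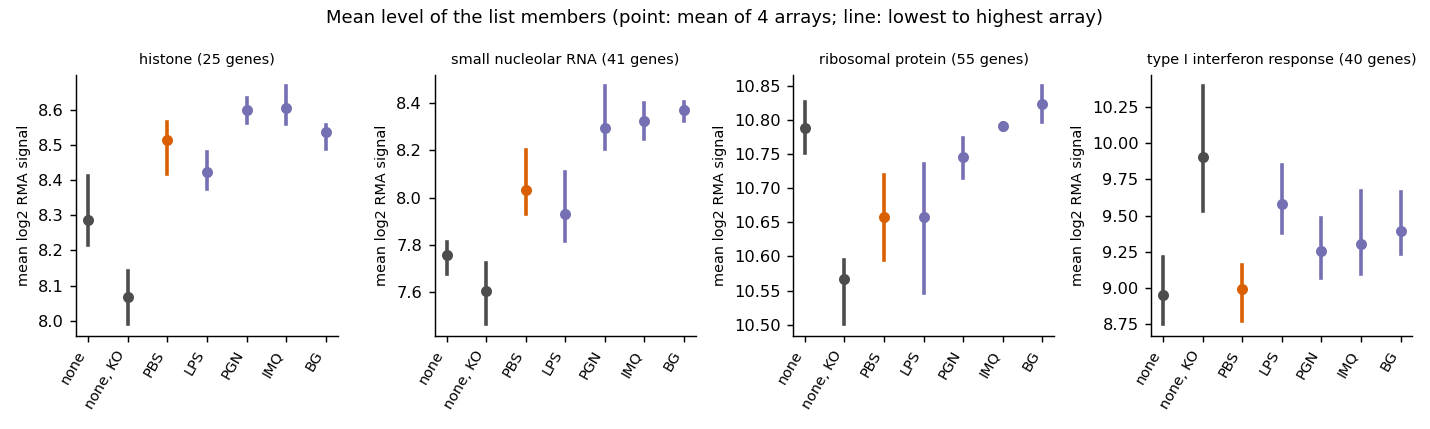
Mean log2 RMA signal of the tested members of 4 gene lists by group; points are the means of 4 arrays and lines run from the lowest to the highest array, with none for uninjected wild type and KO for the uninjected ATF7 knockout. Histone and small nucleolar RNA genes have higher means in every injected group than in both uninjected groups, ribosomal protein genes are not arranged by injection, and the interferon genes are as low after PBS as in uninjected wild type.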

How the data were processed

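RNA from overnight cultures of resident peritoneal macrophages was amplified from 100 ng and hybridised to Affymetrix arrays, per the labels' protocols. The deposited values were intensity signals made by the authors with RMA in Affymetrix Expression Console, per the submitters' processing notes, 1 value per probe set on a linear scale; no tool version or genome build was given in the sources used here. Array values carry no read depth, so precision rests on the 4 arrays per group and on a spread pooled over all 28 arrays. The median signal of the 8 arrays ran from 108 to 115.

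Signals were taken to log2. Of 35556 probe sets, 21789 have 1 gene symbol in the platform table, 1621 several and 12146 none; only the first were used, with the brightest probe set standing for a gene. Genes above the floor (log2 6.32) in at least 4 of 28 arrays were kept. limma 3.58.1 in R 4.3.3 fitted 7 group means over all 28 arrays with an intensity trend, and p-values were adjusted over all 13527 genes by Benjamini-Hochberg; a call is an adjusted p under 0.05. On simulated data for this comparison over 13527 genes, 94% of 100 shifts of 0.5 (log2) and 100% of 100 shifts of 1 were recovered, and 10 unshifted genes were called. The simulated noise was independent between genes and arrays, without array-wide or signal-dependent shifts. It says nothing of smaller differences, and the median absolute difference of the called genes was 0.24. Fold changes compare group means, and ± gives the SD over 4 arrays or, where stated, the fit's SE. Gene lists, members and tests were chosen with earlier results of these data known. Named genes are the 10 largest rises and falls with separate groups, members from among the up to 4 with the smallest p of each list with at least 3 calls in 1 direction, and a set of fixed genes, of which Xist and Cpa3 did not pass the filter. Not every list member that the rule picked is named. Among those left out, Fn1, Ltbp1, Plin1, Wt1 and Pdgfra were called lower and Dusp6 and Klf9 higher. Predicted genes and members of the odorant, microRNA, histone and small nucleolar RNA lists are left out by the rule. Chosen after their values were seen were Hpgds, C1qa, C1qc, Gas6, Mfge8, Cfp, Tlr3, Tlr8, Tlr9, Tlr13, Ly96, Cd63, Becn1, Slc40a1, Siglecf, Folr2, Cd209a, Itgax, Zbtb46, H2-DMa, Nr1d2, Bhlhe41, Atp5a1, Atp5c1, Ndufa1, Cyc1, Cox4i1, Psmb4, and, although the rule leaves out their lists, H2bc3, H2bc8, H2bc14, H2bc18, H4c6, Snora7a, Snord35a and Snord73b. The histone list was corrected after the files were read, by taking out H13, which is no histone. Replicate numbers did not pair the groups: the correlations of same-numbered deviations were 0.24, -0.21, 0.02 and 0.22. Promoters are RefSeq's on GRCm38.p6. Alternatives tried were centring, a second quantile normalisation, the 8 arrays alone, a replicate block, other filters, the mean over probe sets, no trend, array weights, leaving out each array and, added after seeing the data, PBS replicates 1 and 2 alone.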

Additional observations from a re-analysis of the deposited data

Results flagged for a closer look

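Some single arrays stood away from the other 3 of their group by Dixon's test at the 95% level. Of 274 groups of 4 tested for the genes named, 8 held such an array, and chance alone sets 1 apart in about 1 of 20 groups. Nr1d2 was at 9.05 in PBS replicate 4, with the nearest other PBS array at 9.38. Rps4x was at 11.33 in PBS replicate 1, against 11.16 to 11.17 in the rest, and Itgax at 9.50 in that array, with the others from 9.87. Among the uninjected arrays, Adgrb1 was at 6.88 in replicate 2 with the others up to 6.78, and Mt2 at 9.93 in that same array with the others from 10.32. Cfp was at 11.39 in uninjected replicate 3 with the others from 11.54, and Tlr8 at 11.21 in that array with the others up to 10.88. Fos was at 7.71 in uninjected replicate 4, with the others up to 7.57.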

How the results depend on the processing

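The comparison has 4 arrays per group and no labelled batch, and most of its called differences are under 1.5-fold. Of the 137 genes named, 90 kept their side of the threshold under all 20 alternatives, and 1 turned: Timd4, whose log2 difference was 0.0558 on PBS replicates 1 and 2 alone. Beside 4422 calls (2666 higher, 1756 lower; 72 and 9 past 1.5-fold), centring gave 1107 lower and 3 lower past 1.5-fold, quantile normalisation 1737 higher and 18 lower past 1.5-fold, and no filter on low signals 2636 lower. A floor at the 99th percentile gave 808 lower and array weights 2732 calls, 927 of them lower. The 8 arrays alone gave 2068 (1378 higher, 690 lower, 5 lower past 1.5-fold), where 15 named genes lost their call, among them Cfp, Tlr8, Spic and Nr1d2. PBS replicates 1 and 2 alone gave 2199 (1369 higher, 830 lower, 35 higher past 1.5-fold), and 37 named genes lost their call, among them Dab2, Gas6, C1qc, Cfb, Tlr13, Fdps, Folr2, Myc, Nr1d1 and AW112010. Leaving out 1 array gave 2755 to 5316 calls, 1746 to 3015 higher and 921 to 2301 lower, with 50 to 127 and 3 to 18 past 1.5-fold. Quantile normalisation ended 6 calls (Mfge8, Clec7a, Pnpla2, Cd3e, Tsc22d3 and Syvn1), centring 3 (Timd4, Csf1r and Sars), array weights 4 (Clec7a, Nr1h3, Tsc22d3 and Dcn) and the mean over probe sets 2 (Nlrc5 and Hk1). The cause of these shifts was not tested, apart from the smaller numbers of arrays in some fits.

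With the replicate number as a block, the 28-array fit gave 4424 calls and the 8-array fit 2232 (1661 higher, 571 lower), and the latter ended 9 named calls; the numbers do not pair the samples, and the block is given for that reason only here.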

Other observations

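Some stress and transcription factor lists near the share of all genes have not been described above. Of 30 genes of the ATF and CREB factors and of the H3K9 methylation machinery, 7 were higher and 1 lower, against 19.7% and 13% of all genes. Creb3, a membrane-bound factor of the CREB family, was at 9.19, 9.07, 9.09 and 9.19 without injection and 9.50, 9.44, 9.51 and 9.52 after PBS, a 1.28-fold rise with separate groups (limma adjusted p = 5.06e-05). The list's higher count was 2 without uninjected replicate 2 or PBS replicate 3, 3 without uninjected replicate 1 and 4 without PBS replicate 4, and the lower count was 0 without PBS replicate 3 or 4 and 2 without PBS replicate 1. Of 34 ATF4 and unfolded protein response genes, 6 were higher (17.6%) and 2 lower (5.88%), under the shares of all genes. The higher count was 1 without uninjected replicate 2 and 3 without uninjected replicate 1. The lower genes, Ddit4, an inhibitor of mTORC1 signalling, down 1.22-fold (limma adjusted p = 0.00381), and Sars, the seryl-tRNA synthetase, down 1.12-fold (0.00999), had separate groups and kept their call without any 1 array. Syvn1, an E3 ligase of the endoplasmic reticulum, rose 1.11-fold (limma adjusted p = 0.00442).

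Of 25 NRF2 and antioxidant genes 5 were higher (20%, beside 19.7% of all genes) and 1 lower (4%, beside 13%). The higher count was 1 without uninjected replicate 1, 3 without PBS replicate 3 or 4, 9 without uninjected replicate 4 and 10 without PBS replicate 1, and the lower count was 0 without uninjected replicate 4 or PBS replicate 2. Cat, catalase, rose 1.19-fold (limma adjusted p = 0.00809), a call lost without uninjected replicate 1 (adjusted p = 0.0545), and Blvrb, a biliverdin reductase, 1.16-fold (0.00581), both with overlapping arrays. Of 18 alternative activation genes 3 were higher (16.7%, under the share of all genes) and 0 lower, median -0.03. F13a1, the factor XIII A chain, was at 8.21, 8.34, 8.63 and 8.49 and then 8.74, 8.95, 9.31 and 8.64, a 1.41-fold rise with no overlap (limma adjusted p = 0.00575). Among 8118 probe sets without 1 gene symbol that passed the filter, 699 were called higher and 794 lower, both smaller shares than those of the genes tested.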
